A study of Mus musculus with 18 samples.

Results

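The small proline-rich (Sprr) genes described here are Sprr1a, Sprr1b, Sprr2b, Sprr2d, Sprr2e, Sprr2f, Sprr2h, Sprr2i and Sprr3. They are the 9 symbols of a named set, each read by 1 probe, among 32451 genes named on a whole mouse genome mRNA array. They were chosen by their scaled log2 signals and detection flags across the control, MCT 270 and MCT 330 arrays, so the members' own values are given as a description and carry no test. Monocrotaline (MCT), a pyrrolizidine alkaloid of Crotalaria plants whose reactive pyrrole forms in hepatocytes and injures the hepatic sinusoids, was given by mouth to male C57BL/6 mice aged 6 weeks after a fast of 12 h. The groups were saline (control), 270 mg/kg MCT (MCT 270) and 330 mg/kg MCT (MCT 330), with 8 mice in each, and livers were taken 48 h later. Total liver RNA was read on 9 single-colour arrays, labelled as 3 mice per group. All 10 hepatocyte markers of the marker list were well above background on every array, with a summed level of 2161 to 2458 in control, 1931 to 2493 at MCT 270 and 1779 to 2047 at MCT 330, in units of the array's 75th percentile of signal.

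Sprr proteins are short precursors of the cornified envelope, the protein shell that transglutaminases cross-link under the membrane of keratinocytes and other stratified epithelia. Their genes lie side by side in the epidermal differentiation complex, together with involucrin, loricrin, the late cornified envelope genes and many S100 genes. Outside skin, Sprr1a is known in rodents as a gene induced in injured neurons and in stressed heart muscle downstream of gp130 cytokines, and AP-1 sites are known to drive SPRR promoters in human keratinocytes.

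The 9 arrays were counted as 5 liver samples. Within each group, replicates 2 and 3 carry the same array position in their headers, from scans on different days, and differed by no more than repeated spots of a probe on 1 array (ratios of 0.788 to 0.929, robust SD 0.042 to 0.054 on the log2 scale). Their replicate 1 stood apart in control and MCT 270 (robust SD 0.238 to 0.332). MCT 330 replicate 1 had a position of its own and lay somewhat above the spot noise (ratios of 1.37 and 1.42, robust SD 0.079 and 0.080). It was counted with the others as the cautious choice, and the fit with it as a separate sample is given as an alternative. The comparison therefore rests on 2 control samples, 2 MCT 270 samples and 1 MCT 330 sample, and p-values for other genes measure the spread between these samples. The labels describe separate mice. All MCT 330 arrays were scanned in sessions that held no other group, so scan session and the 330 mg/kg dose cannot be told apart. The number of arrays limits the precision. Between 64.0% and 80.9% of spots per array were well above background, the array software's own flag for detection.

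The start sites of the 9 members fall within 169.7 kb of mouse chromosome 3 (GRCm38.p6). The 250 bases before the start site are shown for the 4 members that passed the detection filter, because the AP-1 genes described further on moved in the same livers. The sequences are RefSeq's and run 5′ to 3′ on the gene's own strand, with the AP-1 core TGANTCA in capitals. They are, for Sprr1a, chr3:92485882-92486131 on the minus strand, for Sprr1b, chr3:92438780-92439029 on the minus strand, for Sprr2f, chr3:92364937-92365186 on the plus strand, and for Sprr2i, chr3:92407741-92407990 on the plus strand.
Sprr1a: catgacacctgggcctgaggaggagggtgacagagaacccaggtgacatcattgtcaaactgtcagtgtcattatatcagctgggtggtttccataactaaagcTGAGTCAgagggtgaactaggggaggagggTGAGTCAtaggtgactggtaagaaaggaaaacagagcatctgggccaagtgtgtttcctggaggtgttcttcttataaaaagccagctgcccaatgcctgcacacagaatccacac
Sprr1b: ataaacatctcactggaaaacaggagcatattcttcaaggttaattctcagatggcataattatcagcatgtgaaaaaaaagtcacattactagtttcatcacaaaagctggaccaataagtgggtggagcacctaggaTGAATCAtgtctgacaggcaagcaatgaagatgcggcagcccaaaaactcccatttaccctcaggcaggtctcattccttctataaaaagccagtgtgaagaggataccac
Sprr2f: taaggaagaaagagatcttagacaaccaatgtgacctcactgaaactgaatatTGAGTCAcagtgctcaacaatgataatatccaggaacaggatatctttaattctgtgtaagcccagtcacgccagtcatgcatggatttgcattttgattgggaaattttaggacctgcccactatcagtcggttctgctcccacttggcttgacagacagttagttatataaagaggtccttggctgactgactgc
Sprr2i: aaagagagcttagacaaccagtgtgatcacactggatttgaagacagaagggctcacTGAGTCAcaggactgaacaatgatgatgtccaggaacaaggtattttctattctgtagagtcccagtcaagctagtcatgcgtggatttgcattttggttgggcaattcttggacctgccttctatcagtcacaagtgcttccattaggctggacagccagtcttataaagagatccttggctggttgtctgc

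The AP-1 core, which reads the same on both strands, stood in 8 of the 9 stretches, against 6.75% of 32851 mouse promoter stretches of the same length. Sprr1a alone among the 9 held 2 copies, starting 146 and 116 bases before the start site, and 0.338% of all stretches held 2 or more. Sprr1b carried TGAATCA at 111 bases. Each of the 6 Sprr2 stretches carried 1 TGAGTCA at 193 to 198 bases, and Sprr3 carried none. The 6 Sprr2 stretches also shared the octamer ATTTGCAT at 108 to 112 bases, a motif noticed on reading them, which 1.60% of all stretches held on either strand. In global alignments, the 15 pairs of Sprr2 stretches were 60.1% to 89.3% identical, and the other 21 pairs 47.7% to 57.8%. A Stat core, TTCNNNGAA, was found in none of the 9 (7.02% of all stretches), and an Ets core, GGAAGT on either strand, in Sprr2b and Sprr3 (19.7% of all stretches). These are matches of letters in a fixed window, and neither a match nor its absence shows binding.

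Sprr1a was the member with a large signal, and only at the higher dose. This gene encodes a cornified envelope precursor that is also known as a marker of injured neurons. Its processed spot signal was 228, 177 and 159 on the control arrays, 171, 289 and 252 at MCT 270, and 21429, 19327 and 20243 at MCT 330. The probe was well above background on all 9 arrays, as were 62.2% of genes, and it was not saturated on any. The 3 MCT 330 arrays all lay above the control arrays, as for 23.6% of genes, while the MCT 270 and control arrays overlapped.

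**Figure D1:**
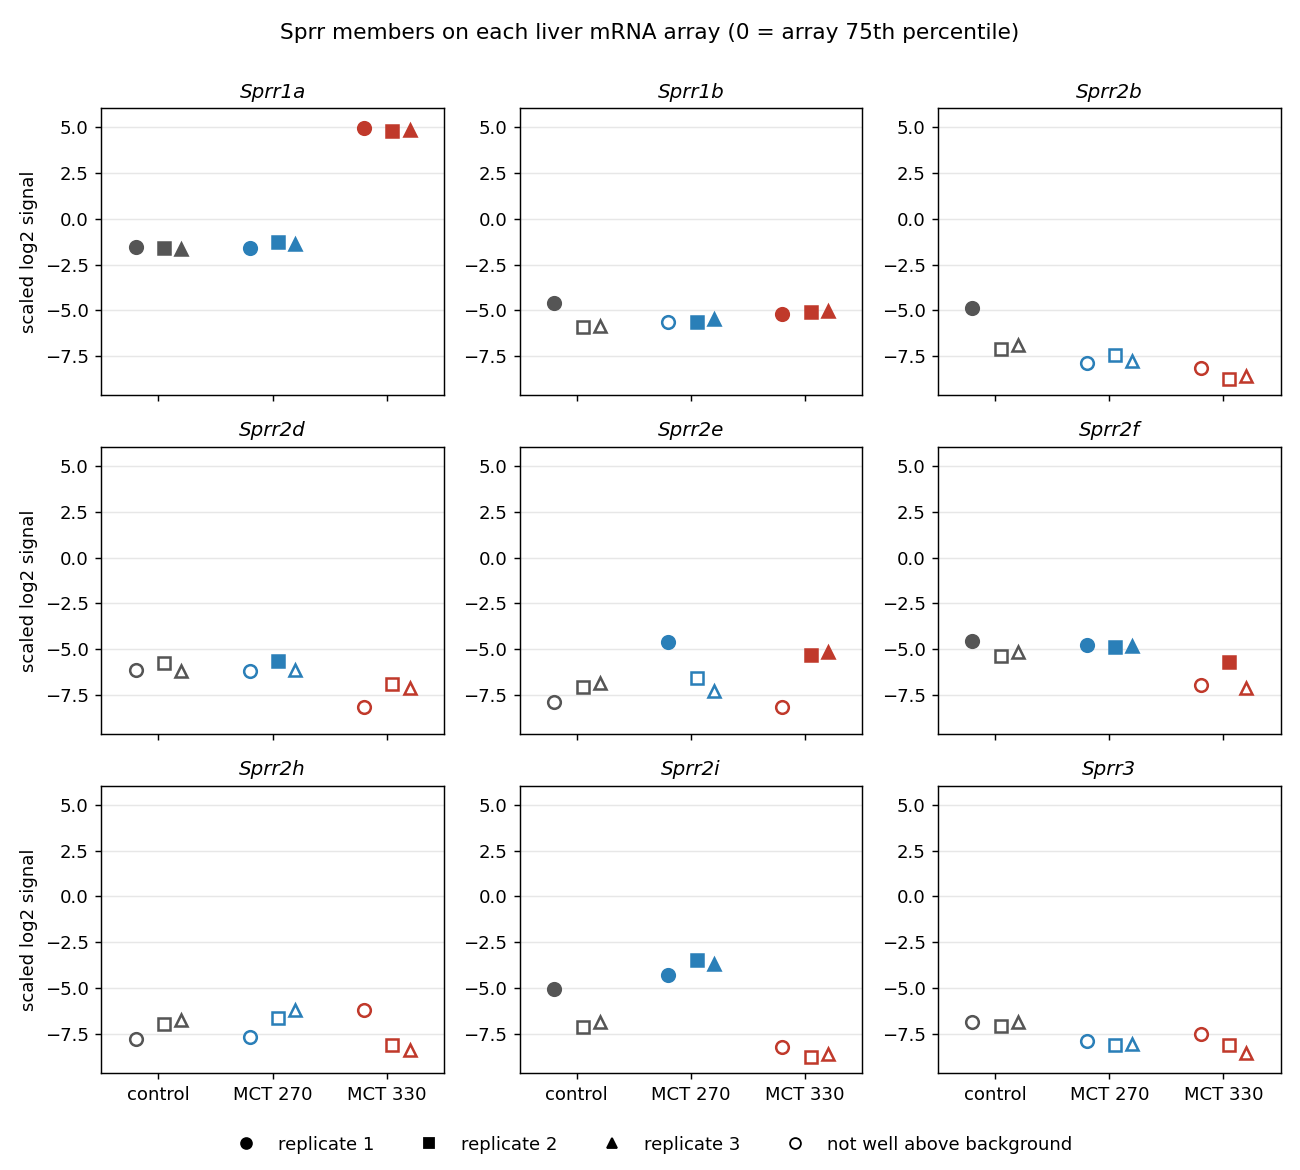
Scaled log2 signal (processed signal over the array's 75th percentile, so 0 is that percentile) of the 9 Sprr members on each array of control, MCT 270 and MCT 330 livers. Symbols mark the replicate and open symbols a spot not well above background. Sprr1a is near 4.86 on the MCT 330 arrays, against -1.45 at MCT 270 and -1.58 in control.

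After scaling each array to its 75th percentile, the log2 level of Sprr1a was -1.58 ± 0.05 in control (SD, 2 samples), -1.45 ± 0.20 at MCT 270 (SD, 2 samples) and 4.86 at MCT 330 (1 sample). The MCT 330 level exceeded control by 6.44 ± 0.22 on the log2 scale (SE of the limma fit), or 86.8-fold. It exceeded MCT 270 by 6.32 ± 0.22, or 79.7-fold. Sprr1a ranked 3 from the highest of 24802 genes in both of these differences, which share the MCT 330 sample. The MCT 270 level differed from control by 0.12 ± 0.18, within the spread between samples. Within the 2 scan sessions that held both groups, MCT 270 minus control was 0.13 and 0.28, the second session holding repeat scans only. In total RNA from whole liver, more cells that express a gene and more RNA per cell cannot be told apart.

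The Sprr1a difference between MCT 330 and control was 6.40 to 6.48 when any array, or any control or MCT 270 sample, was left out. It was 6.36 to 6.68 over the other settings. The single MCT 330 sample could not be left out, so these ranges do not test it. Without any scaling, the raw spot was 780.4 to 947.8 times its local background at MCT 330, against 7.50 to 10.9 times in control. At MCT 270 it was 8.54 to 14.8 times background. The remaining 8 members never exceeded 3.52 times background in any group.

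**Figure D2:**
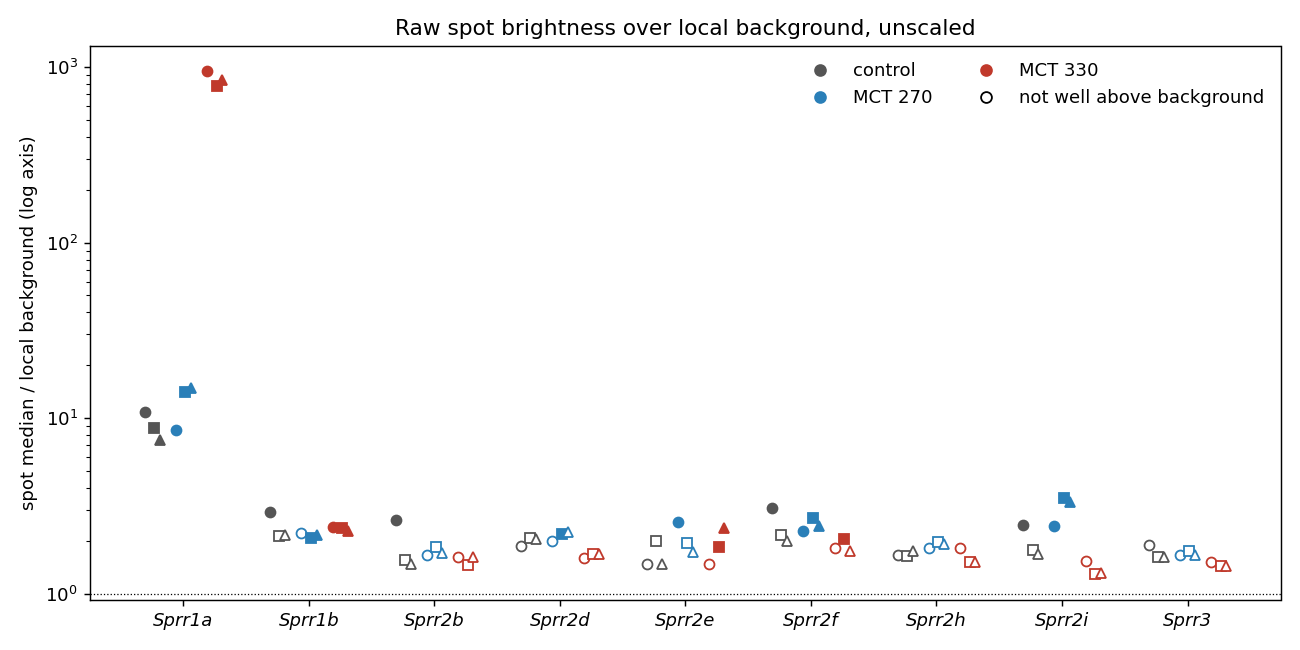
Median spot signal divided by local background, on a log axis, for each member and array, with no scaling between arrays. The Sprr1a spots of MCT 330 lie at 780.4 to 947.8, and the spots of the other 8 members at 1.29 to 3.52.

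Sprr1b, the closest relative of Sprr1a by name and also an envelope precursor, was dim throughout. Its processed signal was 27.1, 9.03 and 8.57 in control, 10.5, 13.8 and 14.8 at MCT 270, and 19.0, 20.3 and 21.6 at MCT 330. It was well above background on 1, 2 and all 3 arrays of those groups, and so passed the detection filter through the MCT 330 arrays alone. Its scaled log2 signals at MCT 330, -5.20 to -5.03, lay below the lowest flagged on control replicates 2 and 3, -4.85 and -4.60. The MCT 330 minus control difference was 0.13 ± 0.54 on the log2 scale, with control replicate 1 above the MCT 330 arrays and control replicates 2 and 3 below them. Without control replicate 1 the difference was 0.76, and without replicates 2 and 3 it was -0.50, so its direction depended on the control sample used. Against MCT 270, the MCT 330 arrays were all higher, as for 22.0% of genes, by 0.48 ± 0.54. Since the MCT 330 arrays chose the gene, nothing is read from that share.

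Sprr2i was dim and passed the detection filter through the MCT 270 arrays alone, where its signal was highest. Its processed signal was 20.5, 3.87 and 4.30 in control, 26.6, 63.0 and 49.8 at MCT 270, and 2.38, 1.7 and 1.85 at MCT 330. It was well above background on 1 control array, on all 3 MCT 270 arrays and on no MCT 330 array; 1.06% of genes on the array combined all 3 MCT 270 arrays with none of MCT 330, and since that pattern chose the gene nothing is read from the share. All MCT 270 arrays lay above all control arrays, as for 19.6% of genes. Nothing is read from that share either, because the MCT 270 arrays chose the gene. The MCT 270 minus control difference was 2.07 ± 0.70 on the log2 scale, or 4.19-fold. On control replicates 2 and 3 the scaled log2 signals, -7.10 and -6.86, lay below the lowest flagged there, -4.85 and -4.60. The size of the difference is therefore uncertain. It was 2.19 and 3.16 within the 2 shared scan sessions, the second of which held repeat scans only. Control replicate 1 was the high control array, and the difference was 3.05 without it and 1.08 without control replicates 2 and 3. At MCT 330 the level was at least 4.93-fold lower than at MCT 270, a bound set by the lowest signal that the arrays scored as well above background. The spot itself was only 2.42 to 3.52 times local background at MCT 270, and with a background model that adds an offset of 50 (normexp) the MCT 270 minus control difference was 0.37. The MCT 330 minus MCT 270 difference was then -0.66 on the log2 scale, so the bound holds for the processed signal and not under normexp.

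Sprr2f was near the detection limit in every group. Its processed signal was 28.7, 12.9 and 14.1 in control, 19.4, 23.9 and 22.8 at MCT 270, and 5.73, 13.7 and 5.04 at MCT 330. It was well above background on 1, 3 and 1 arrays, and so passed the filter through the MCT 270 arrays alone. All MCT 330 arrays lay below all MCT 270 arrays (45.0% of genes did so), with a difference of -1.78 ± 0.35 on the log2 scale. Since the MCT 270 arrays chose the gene, nothing is read from that share. On MCT 330 replicates 1 and 3 the scaled log2 signals, -6.92 and -7.12, lay below the lowest flagged there, -5.92 and -6.30. Differences from the MCT 330 level are therefore of uncertain size. The MCT 330 minus control difference was -1.68 ± 0.35, and the normexp value was -0.19. MCT 330 replicates 2 and 3, the same array position, differed by 1.46 for this spot.

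The other 5 members failed the filter, which asks for detection on all 3 arrays of some group. Sprr2e was well above background on 1 MCT 270 array, with a signal of 21.3, and on 2 MCT 330 arrays, with 17.7 and 19.8, while its other 6 arrays read 2.49 to 7.31. Sprr2b was detected on control replicate 1 alone, at 22.8, and read 1.67 to 4.27 elsewhere. Sprr2d was detected on MCT 270 replicate 2 alone, at 13.8, and read 2.47 to 9.89 elsewhere. Sprr2h, at 2.15 to 9.65, and Sprr3, at 1.90 to 5.77, were undetected on every array, as held for 13.6% of genes. Levels this close to the floor have no order, so no difference is read from these 5.

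Counted by group, 1 of the 9 members was well above background on all 3 control arrays, 3 on all 3 MCT 270 arrays and 2 on all 3 MCT 330 arrays. The same held for 63.5%, 73.5% and 71.9% of all genes on the array. Because detection was stricter on control replicates 2 and 3, these counts do not compare levels between groups. Sprr1a was the member that all groups shared. Sprr2f and Sprr2i were the others at MCT 270, and Sprr1b was the other at MCT 330. Under the array software's looser flag, positive and significant, the counts were 4, 6 and 3. The share over all genes was not counted for that flag, so nothing is read from these counts. On control replicate 1, 5 members were well above background, against 1 on each of control replicates 2 and 3. Detection differed between the repeat scans, replicates 2 and 3, in 2 of 27 combinations of member and group.

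The median over the 9 members carries no reading: between MCT 330 and control it was the -1.14 (log2) of Sprr3, which was undetected on every array. Of the 4 members that passed the filter, Sprr1a had its highest level at MCT 330. Sprr2i had its highest at MCT 270, but it passed through the MCT 270 arrays alone, so nothing is read from that order.

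**Figure D3:**
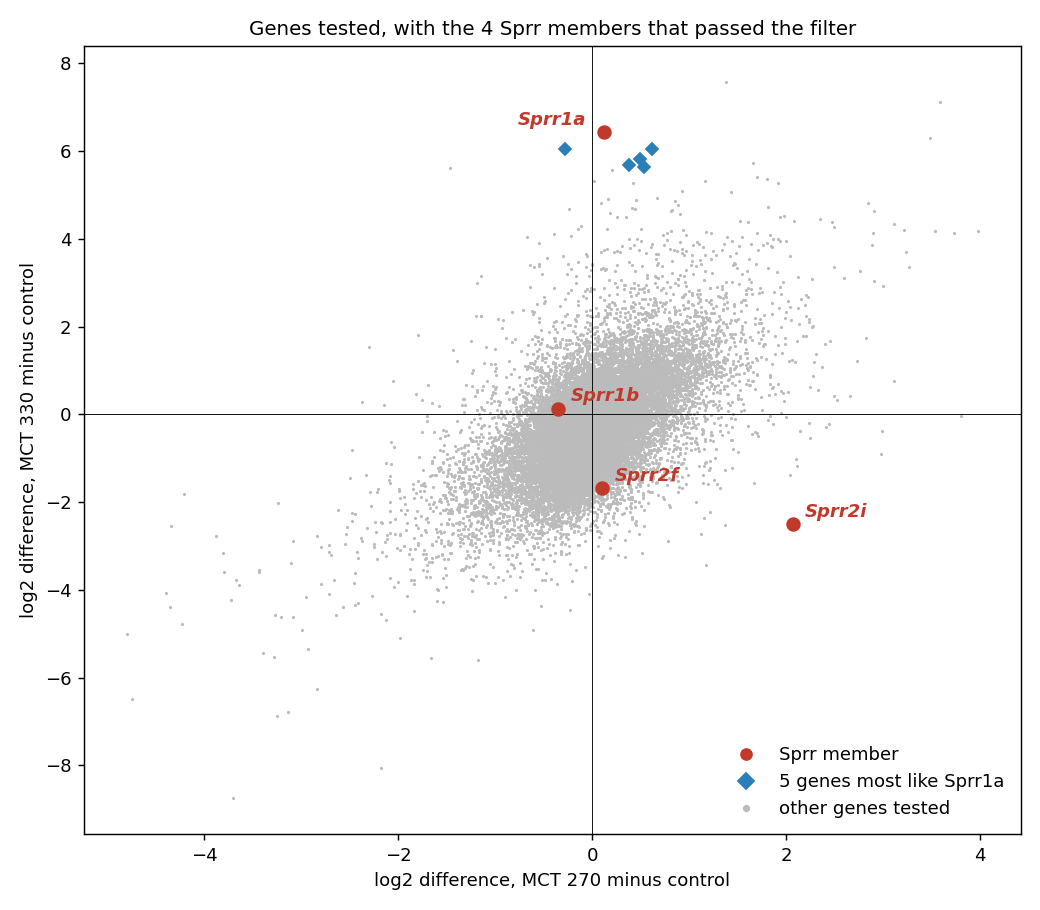
Each point is 1 of 24802 genes, with its log2 difference from control at MCT 270 on the x axis and at MCT 330 on the y axis; both share the control samples. Red points are the 4 Sprr members that passed the filter and blue diamonds the 5 genes with profiles nearest to Sprr1a. Sprr1a lies at 0.12 and 6.44, and Sprr2i at 2.07 and -2.50.

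Over all genes, limma with Benjamini-Hochberg adjusted p under 0.05 called 8300 of 24802 genes between MCT 330 and control (33.5%), 2358 higher (9.51%) and 5942 lower (24.0%). The median gene shifted by -0.25 on the log2 scale. Under quantile normalization that shift was -0.05 and the calls were 3100 higher and 4324 lower. Between MCT 270 and control limma called 0 genes (0.0%), with 4610 at an unadjusted p under 0.05 (18.6%). Between MCT 330 and MCT 270 it called 5483 (22.1%), 1247 higher (5.03%) and 4236 lower (17.1%), or 1529 higher and 2424 lower under quantile normalization. Without MCT 270 replicate 1 the MCT 330 against control calls were 3768, without MCT 270 replicates 2 and 3 they were 4112, and in both cases no gene was called between MCT 330 and MCT 270. With MCT 330 replicate 1 as a separate sample, the MCT 330 against control calls were 13772 and the MCT 270 against control calls 1776. Sizes of change depended on the background model: of 40 genes named from the lists that passed between MCT 330 and control, all kept their direction under normexp and 37 their call, while for 21 the fold was over 1.5 times smaller, and bounds on a fold were computed on the processed signal.

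The genes whose profiles lay nearest to that of Sprr1a, by Euclidean distance of log2 differences from the control mean over the 5 samples, were Retnlg (0.94), Atf3 (0.99), Cstdc4 (1.04), Il1r2 (1.04) and S100a8 (1.11). Retnlg is a resistin-like protein of neutrophils, Atf3 a stress-induced partner of AP-1 proteins, Il1r2 the decoy interleukin-1 receptor, and S100a8 a calcium-binding protein abundant in neutrophils. All 5 were also the nearest over the 9 arrays, which hold the same control signals. The MCT 330 minus control differences of these 5 genes were 5.64 to 6.06 on the log2 scale, and their MCT 270 minus control differences -0.28 to 0.62. Il1r2 was undetected on every control array and Retnlg was well above background on 1. For both, the distance therefore rests on control signals close to the floor. The Il1r2 difference was at least 4.21 as a bound, and normexp gave 2.41 for Il1r2 and 3.78 for Retnlg. By the same distance, out of 24801 genes, Sprr1b ranked 8774, Sprr2f 22652 and Sprr2i 24525. The distance is dominated by the single MCT 330 sample and says nothing of shared control.

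**Figure D4:**
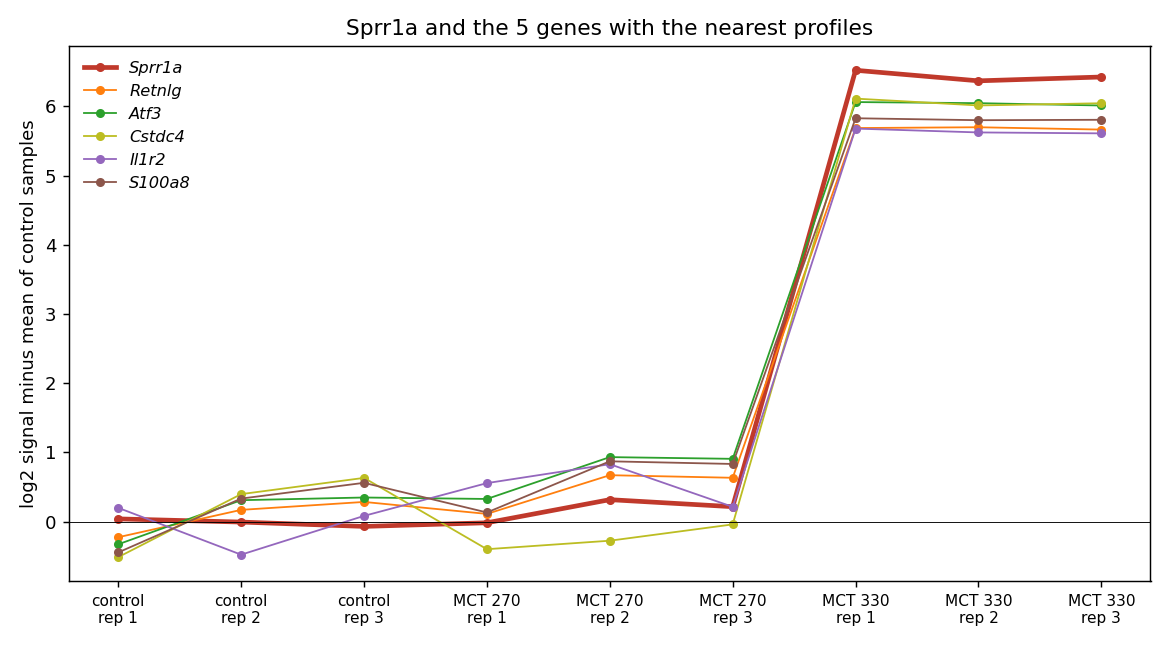
Log2 signal minus the mean of the control samples on each of the 9 arrays (x axis) for Sprr1a and the 5 genes with the nearest profiles. All 6 lines stay below 1 on the control and MCT 270 arrays and lie above 5 on the MCT 330 arrays.

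The AP-1 factors were largely higher at MCT 330. Of 11 such genes with Atf3, all tested, 8 rose and 1 fell at MCT 330 against control. The shares over all genes were 9.51% and 24.0%, and the list median was 1.20 on the log2 scale beside -0.25 over all genes tested. Atf3 rose by 6.04 ± 0.40 (SE, limma adjusted p = 0.0087), the immediate-early gene Fos by 4.67 ± 0.21, its partner Jun by 4.30 ± 0.35 and the related Junb by 3.00 ± 0.31 (adjusted p = 0.0087 to 0.0088). Under normexp these were 4.80, 3.96, 3.50 and 1.38. None of the 11 was called at MCT 270, where the list median was -0.08. Against MCT 270, 7 rose and 1 fell at MCT 330, beside 5.03% and 17.1% of all genes. Without MCT 270 replicate 1 the number called at MCT 330 against control was 6 in place of 9. The AP-1 core stands in the promoter stretches of 8 Sprr members, of which Sprr1a alone had a large signal. Any part of AP-1 factors in the Sprr levels was not tested.

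**Figure D5:**
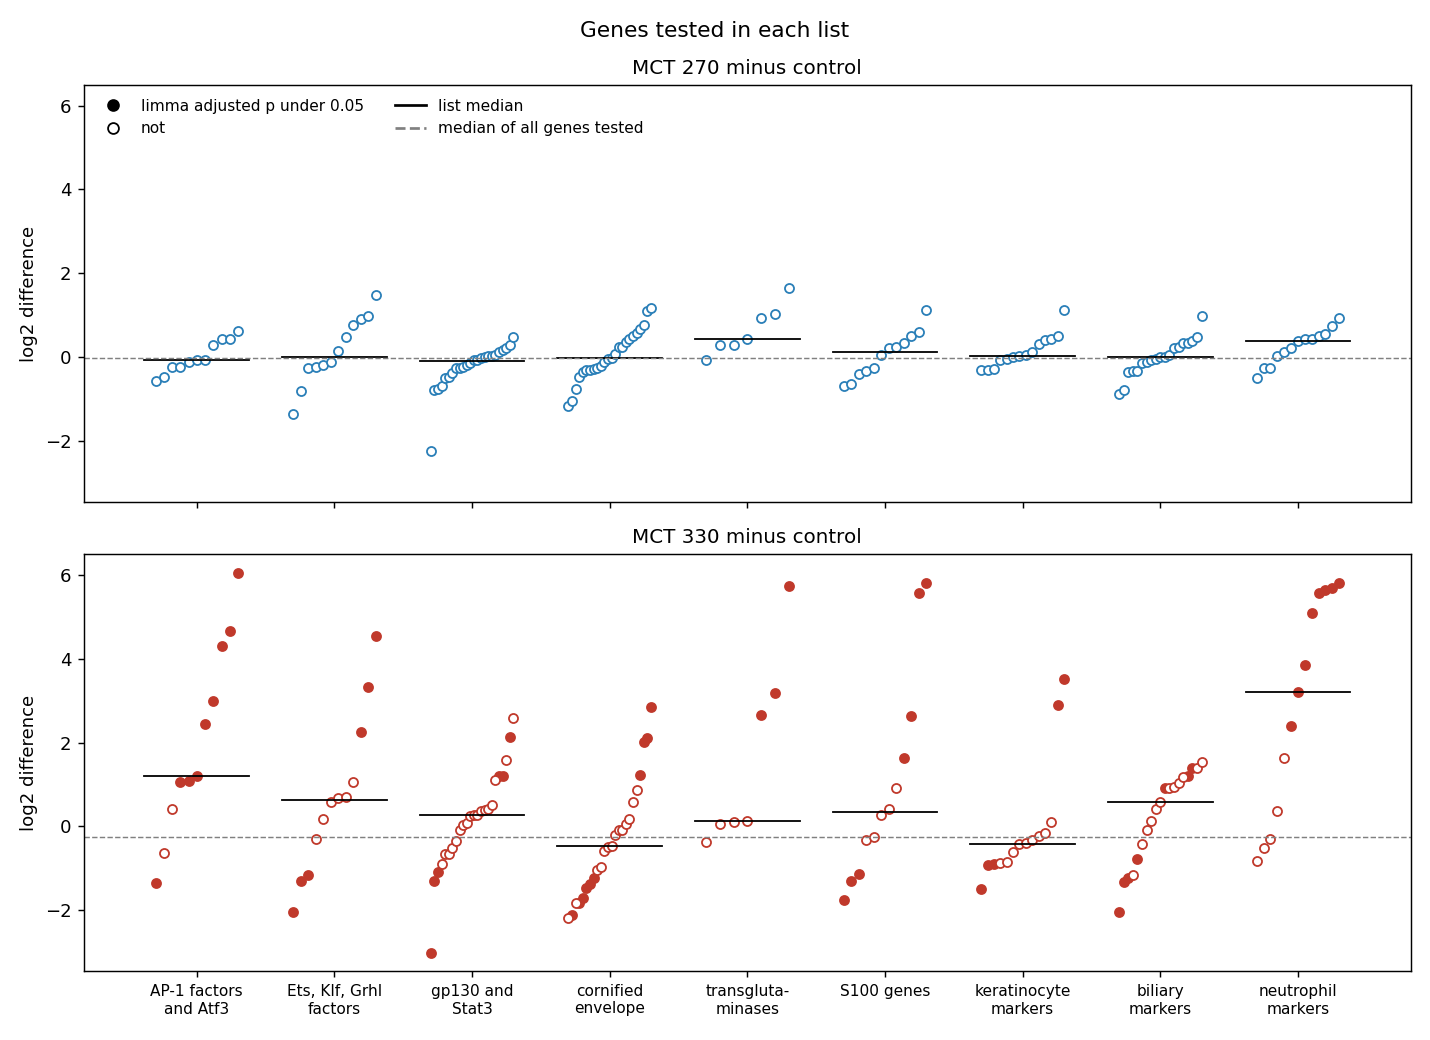
Log2 difference from control of every tested gene in 9 lists, at MCT 270 (upper panel) and MCT 330 (lower panel). Filled points passed limma at an adjusted p under 0.05, black bars are list medians and dashed lines the median of all genes tested. No point is filled at MCT 270; at MCT 330 the AP-1 median is 1.20 and the neutrophil median 3.20, beside -0.25 over all genes.

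Among 14 epithelial Ets, Klf and Grhl factors, 12 were tested. At MCT 330 against control 3 rose and 3 fell, beside 9.51% and 24.0% of all genes, with a list median of 0.64. Elf3, an epithelial Ets factor known to act on SPRR promoters in human keratinocytes, rose by 4.56 ± 0.43 (limma adjusted p = 0.0087; 2.84 under normexp) and was well above background on 1, 3 and 3 arrays of control, MCT 270 and MCT 330. The zinc-finger factor Klf6 rose by 3.32 ± 0.34 and Klf4, a factor of the epidermal barrier, by 2.24 ± 0.23. Grhl3, also of the epidermal barrier, fell by 2.05 on the log2 scale (SE 0.35, limma adjusted p = 0.017). With arrays left out, and likewise over the other settings, 4 to 10 of the 12 passed in place of 6.

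Of 24 genes of the gp130 and Stat3 pathway, all tested, 3 rose and 3 fell, beside 9.51% and 24.0% of all genes. The list median was 0.26. The interleukin-6 receptor gene Il6ra was lower at MCT 330, with a log2 difference of -3.01 ± 0.29 (limma adjusted p = 0.0087), and so was the leukaemia inhibitory factor receptor gene Lifr, at -1.30 ± 0.20. Timp1, a protease inhibitor induced by gp130 cytokines, rose by 2.14 ± 0.44 (adjusted p = 0.025), and Socs1, a feedback inhibitor of Jak kinases, by 1.20 ± 0.20 (adjusted p = 0.016). The Timp1 call was lost without control replicates 2 and 3, and the Socs1 call when either MCT 270 sample was left out.

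Transglutaminases, the enzymes that cross-link Sprr proteins in skin, included 7 tested genes. Of these, 3 rose and none fell, beside 9.51% and 24.0% of all genes. Tgm1, the keratinocyte transglutaminase, rose by 3.19 ± 0.28 (limma adjusted p = 0.0087), and Tgm2, the tissue transglutaminase, by 2.67 ± 0.37 (adjusted p = 0.012). F13a1, the subunit of clotting factor XIII, was undetected on every control array, and its MCT 330 level was at least 19.0-fold higher in the processed signal (adjusted p = 0.0087), beside 5.17-fold under normexp. The other 4 tested genes did not pass, with differences of -0.37 to 0.14.

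The neighbours of the Sprr genes in the epidermal differentiation complex, listed with other cornified envelope genes, included calls in both directions. Of 33 on the array, 24 were tested, 4 rose and 6 fell at MCT 330 against control, beside 9.51% higher and 24.0% lower over all genes, and their median was -0.48. The desmosome and envelope linker periplakin (Ppl) rose by 2.01 ± 0.22 (limma adjusted p = 0.0092). Involucrin (Ivl) was well above background on the MCT 330 arrays and on no others, at least 1.59-fold higher than control (adjusted p = 0.019), and so was the late envelope gene Lce1d, at least 1.14-fold (adjusted p = 0.014). The peptidoglycan recognition gene Pglyrp3 was lower at MCT 330, by -2.11 ± 0.24 on the log2 scale (adjusted p = 0.0095). Without MCT 270 replicate 1 the number called was 7 in place of 10.

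The S100 genes of the same cluster divided. Of 12 tested, 4 rose and 3 fell, beside 9.51% and 24.0% of all genes, with a list median of 0.34. S100a8 and S100a9, the subunits of calprotectin, rose by 5.81 ± 0.49 and 5.57 ± 0.63 (limma adjusted p = 0.0087 and 0.0093). S100a11, known as a keratinocyte calcium sensor, rose by 2.64 ± 0.33 (adjusted p = 0.010), and S100a3, a hair cuticle gene, was lower, at -1.76 ± 0.20 (adjusted p = 0.0092). Without MCT 270 replicate 1, 4 of the 12 passed in place of 7.

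Markers of cell types that could carry Sprr transcripts were read beside Sprr1a. Of 20 keratinocyte markers, 14 were tested, 2 rose and 3 fell, beside 9.51% and 24.0% of all genes. The list median was -0.41. The list's summed level was 5.66 to 7.19 in control, 5.63 to 6.69 at MCT 270 and 5.69 to 5.81 at MCT 330. Such sums are on a linear scale and mostly follow a list's brightest genes, here Krt16, with a log2 level of 1.99 in control. The keratin genes Krt13 and Krt5 rose by 3.52 ± 0.46 and 2.89 ± 0.25 (limma adjusted p = 0.011 and 0.0087), or by 1.07 and 1.70 with the mean of a gene's probes. The hemidesmosome collagen Col17a1 and the 14-3-3 protein Sfn were lower, at -1.49 ± 0.21 and -0.93 ± 0.20 (adjusted p = 0.012 and 0.029); the normexp setting ended the Col17a1 call and leaving out either MCT 270 sample the Sfn call. Leaving out either MCT 270 sample left 3 of the 14 called in place of 5. The desmosomal cadherin genes Dsg1a, Dsg3 and Dsc3 were undetected on every array.

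Of 20 biliary epithelial markers, 19 were tested, 3 rose and 4 fell, beside 9.51% and 24.0% of all genes. The list median was 0.59. The list's summed level was 26.6 to 28.7 in control, 24.0 to 25.4 at MCT 270 and 28.1 to 28.9 at MCT 330. Krt7, a bile duct keratin, was not well above background in control and was at least 1.68-fold higher at MCT 330 in the processed signal (limma adjusted p = 0.012), beside 1.35-fold under normexp. The mucin Muc1, the secretin receptor Sctr and the cilium gene Pkhd1 were lower at -2.06 ± 0.33, -1.32 ± 0.22 and -1.24 ± 0.34 (adjusted p = 0.015, 0.016 and 0.047). The Pkhd1 call was lost in 9 of 21 alternatives and the Sctr call without MCT 270 replicate 1, where 2 of the 19 passed in place of 7, and with the mean of a gene's probes. Without MCT 270 replicates 2 and 3, 3 passed. Cftr, the duct chloride channel, was undetected on every array. Of 9 mesothelial markers on the array, 6 were tested, 1 rose and none fell, beside 9.51% and 24.0% of all genes. The marker that rose was Upk1b, a uroplakin of mesothelium, with no bound above control. Its limma adjusted p was 0.038, and the call was lost in 5 of 20 alternatives. Without MCT 330 replicate 1, 3 of these markers passed. Slurp1, in the same list, differed by -0.86 ± 0.29 without passing (adjusted p = 0.079).

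Most neutrophil markers were higher in the same MCT 330 sample as Sprr1a. Of 13, all tested, 8 rose and none fell at MCT 330 against control, beside 9.51% and 24.0% of all genes. The list median was 3.20, and S100a8 and S100a9 stand in both this list and that of S100 genes. The summed level was 8.95 to 12.0 in control, 8.56 to 9.47 at MCT 270 and 41.3 to 42.7 at MCT 330. The brightest gene in this sum was Csf3r in control, at a log2 level of 3.21, and S100a9 at MCT 330, at 4.69. Retnlg rose by 5.68 ± 0.34, and Il1r2, undetected on every control array, was at least 18.5-fold higher in the processed signal (limma adjusted p = 0.0087 for both). Under normexp Retnlg rose by 3.78 and Il1r2 was 5.31-fold higher. Of the markers that did not pass, Camp, Cd177 and Csf3r were lower, at -0.82 ± 0.26, -0.51 ± 0.43 and -0.29 ± 0.24. Ltf and Ngp, also without passing, were higher by 0.37 ± 0.39 and 1.62 ± 0.92. Of the 13, 6 were undetected on every control array and none was undetected at MCT 330. The part of neutrophils, keratinocytes, bile duct cells or mesothelium in the Sprr1a level was not tested.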

How the data were processed

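Liver mRNA was read on 9 arrays, 3 per group by the labels. Per the file headers, the deposited intensity values of each array were written by Feature Extraction 11.0.1.1 (Agilent), background-subtracted and detrended by that software, on a design annotated on mm9; no normalization between arrays had been applied. The detection flags of each spot come from the same deposited files and were set by that software. The miRNA arrays hold no Sprr probe and were not used here.

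Of 44397 spots per array, 1377 controls were left out, as were outlier-flagged spots and 215 spots of MCT 330 replicate 1 over 1 log2 unit from both other MCT 330 arrays. Computed log2 values are log2 processed intensity minus each array's 75th percentile; spots of a probe were averaged, probes kept if detected (well above background) on every array of 1 or more groups, and each gene took its brightest probe, leaving 24802 genes. Of 33258 systematic names, 21464 matched a RefSeq symbol. Probe sequences were not used, so cross-hybridisation between the similar Sprr2 transcripts is unknown and their values are uncertain in that respect.

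Arrays no further apart than repeated spots were averaged to 1 sample, giving 5 samples and 2 residual degrees of freedom; the spread of the single MCT 330 sample is borrowed from the other groups. Groups were compared with limma 3.58.1 (lmFit, eBayes, 1 fit) in R 4.3.3, with Benjamini-Hochberg adjustment over all genes; the procedure was tested on simulated data. Replicate numbers did not pair arrays across groups (correlations of deviations -0.04 to 0.04). For a gene undetected on every array of a group, a fold is a bound: the bright group's mean against the mean of, per array, the higher of the gene's own signal and the lowest signal well above background. Named genes are the 9 members, the 5 nearest to Sprr1a, and per list up to 4 that passed at MCT 330 against control by size of change (where fewer than 2 passed, the 2 with the smallest p). A few genes named as undetected were chosen after their values were seen. The members and the 13 lists were chosen with earlier results of these data known. Promoter stretches are RefSeq's on GRCm38.p6, used for sequence only. Alternatives covered normalization, background, detection filter, probe choice, sample structure, scan blocks and leaving out arrays.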

Additional observations from a re-analysis of the deposited data

How the results depend on the processing

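The Sprr1a difference kept its direction at MCT 330 against control and against MCT 270 under every setting run. None of these settings could leave out the single MCT 330 sample. The quantile values, 6.68 and 6.52, moved by more than the spread between samples. The median over the 9 members between MCT 330 and control was Sprr3's own value, -0.48 under quantile normalization and -0.069 under normexp, and carries no reading, since Sprr3 was undetected on every array. Counted as positive and significant, 4 members were detected in control and 6 at MCT 270. Without a share over all genes for that flag, nothing is read from these counts. For MCT 330 against control, MCT 270 against control and MCT 330 against MCT 270, in that order, genes called were 18019, 9564 and 16082 with 9 arrays as separate samples, and 17888, 9362 and 15934 with a replicate block added. They were 18726, 8901 and 16937 with scan session as a random block, 17629, 8803 and 15603 with scan day as a block, and 13772, 1776 and 11278 with 6 samples. The last setting and the scan day block were chosen after seeing the data. More samples enter these fits, although repeat scans are not independent. With no filter the calls were 3751, 0 and 0, with probes well above background on all 9 arrays 409 were called at MCT 270 against control, and normexp called 520 there (220 higher, 300 lower). Normexp gave 3730 higher and 3972 lower at MCT 330 against control, and 1982 higher and 2069 lower against MCT 270. A fit of the 6 control and MCT 270 arrays with scan session as a block called 4729. Leaving out single arrays gave 3768 to 8437, 0 to 0 and 0 to 7179, and leaving out MCT 270 replicates 2 and 3 together gave 4112, 0 and 0 (control replicates 2 and 3: 8582, 0 and 6827). The replicate numbers do not pair the arrays, so the block says little. With no detection filter, the calls of Ivl, Timp1, Sfn, Pkhd1, Upk1b, Apoa1 and Fga at MCT 330 against control were lost, and with detection on all 9 arrays required, 3 neutrophil markers were called in place of 8, as fewer could be tested. Signal over background limits every member but Sprr1a: the others read 1.29 to 3.52 times local background.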

Other observations

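Genes known to rise in injured peripheral neurons, the setting in which Sprr1a is best known outside skin, were read beside it. Of 16 on the array, 12 were tested, 2 rose and 4 fell at MCT 330 against control, beside 9.51% higher and 24.0% lower over all genes, with a median of -0.87 on the log2 scale beside -0.25 over all genes tested. Gadd45a, a stress gene of growth arrest that is also a p53 target, rose by 3.85 ± 0.55 (limma adjusted p = 0.013). The muscle LIM protein gene Csrp3, the endopeptidase gene Ecel1 and the cholecystokinin receptor gene Cckbr were lower, at -2.16 ± 0.34, -1.94 ± 0.21 and -1.89 ± 0.21 (adjusted p = 0.015, 0.0089 and 0.0092), and under normexp Ecel1 and Cckbr at -0.68 and -0.52. Hepatocyte genes gave 1 higher and 1 lower of 10, beside 9.51% and 24.0% of all genes. Fibrinogen alpha (Fga) rose by 0.94 ± 0.20 and apolipoprotein A1 (Apoa1) was lower at -1.01 ± 0.20 (limma adjusted p = 0.027 and 0.022). Both calls were lost when either MCT 270 sample was left out, and with no detection filter. The Apoa1 call was also lost under quantile normalization. The Fga call was also lost with the mean of a gene's probes and without control replicates 2 and 3.

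Of 5 other Sprr genes on the array, outside the 9 members, 2 were tested and neither passed, while with the mean of a gene's probes 1 did. Sprr2a2 is read by 3 probes that disagree. Its brightest probe had a processed signal of 41411 to 48169 in control, 32711 to 44085 at MCT 270 and 43866 to 45985 at MCT 330, with an MCT 330 minus control difference of -0.23 ± 0.28 on the log2 scale (limma adjusted p = 0.56). A second probe read 25.3 to 47.1, 32.0 to 45.8 and 17.9 to 24.1 in the same order of groups, and the last 4.11 to 11.1, 10.6 to 11.3 and 4.92 to 6.79. Sprr4 was well above background on 1, 3 and 3 arrays and differed by -0.37 ± 0.30 (adjusted p = 0.37). Sprr2g, Sprr2j-ps and Sprr2k were not well above background on any array.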
